A study of Mus musculus with 4 samples.

Results

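The SIBLING genes are a family of secreted, acidic phosphoproteins of mineralising tissue, and 4 of them (Spp1, Ibsp, Dmp1 and Mepe) were examined together with Phex and Fam20c, an enzyme pair that acts on these proteins. The 6 genes were chosen by symbol for their shared role, with earlier results of these data known. They were matched to transcripts through the mouse GENCODE annotation. All 6 were found among 34547 genes, and all 6 passed the filter on low counts that left 16607 genes for testing. RNA was sequenced from mouse forelimb cartilage of the C57BL/6 strain, cut from cryosections with a laser. The PC group (proliferating chondrocytes, the dividing cells of the growth plate) holds replicates 1 and 2 from E14.5 (E is the day of embryonic development). The HC group (hypertrophic chondrocytes, the enlarged cells that have left the cell cycle) holds replicates 3 and 4 from E15.5. No genotype, transgene or treatment is named for either group. Cell state and day of development cannot be told apart in this design. The labels do not say whether the 2 libraries of a group came from different animals, so the p-values measure only the spread between these libraries, which may be technical.

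SIBLING proteins carry an RGD sequence that binds integrins, and stretches of acidic residues and phosphorylated serines that bind calcium and the surface of mineral. Fam20c, a kinase of the secretory pathway, adds most of these phosphates. Phex, a membrane peptidase of bone and tooth cells, cuts the acidic peptides that are released from Mepe, Dmp1 and osteopontin and that block mineral growth, and its loss causes X-linked hypophosphataemia. In the growth plate, the cartilage matrix around the last hypertrophic cells mineralises before blood vessels and bone cells enter it.

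Depth ran from 15246529 to 36644496 estimated counts, with the 2 HC libraries the lower. The mitochondrial share of counts was 8.81% and 13.15% for PC against 20.16% and 14.11% for HC. Effective minus annotated transcript length, which is nearer to 0 when fragments are shorter, had medians of -172.8 and -153.3 bases in PC and -124.7 and -145.5 bases in HC. The part of depth and fragment length in the differences below was not tested. By edgeR's quasi-likelihood test at an adjusted p under 0.05, 2.75% of all genes tested had a higher level in HC and 1.96% a lower one.

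The 4 SIBLING genes lie within 270.3 kb of chromosome 5 together with the dentin gene Dspp, all on the same strand. Their start regions are shown because the 4 genes are neighbours of 1 family. Each sequence is the 250 bases before the RefSeq start site, read 5′ to 3′ on the plus strand of GRCm38.p6. All 6 genes had an entry in that RefSeq table. Capitals mark 3 short motifs, looked for on both strands with the sequences already in view: the Runx core ACCACA, which reads TGTGGT from the other strand, the CCAAT box, which reads ATTGG from the other strand, and TTTAAA, which reads alike on both. No 2 of the marked matches overlap.
Spp1, chr5:104434861-104435110: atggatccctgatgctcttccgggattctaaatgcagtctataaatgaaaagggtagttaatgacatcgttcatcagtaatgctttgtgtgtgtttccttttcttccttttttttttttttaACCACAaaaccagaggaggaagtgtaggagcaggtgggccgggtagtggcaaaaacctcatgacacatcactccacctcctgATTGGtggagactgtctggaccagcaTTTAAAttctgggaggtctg
Ibsp, chr5:104299037-104299286: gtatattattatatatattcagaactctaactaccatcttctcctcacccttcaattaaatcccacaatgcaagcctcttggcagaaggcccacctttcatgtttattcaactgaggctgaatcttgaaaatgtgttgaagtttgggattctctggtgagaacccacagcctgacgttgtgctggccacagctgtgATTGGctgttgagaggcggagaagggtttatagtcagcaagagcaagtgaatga
Dmp1, chr5:104202367-104202616: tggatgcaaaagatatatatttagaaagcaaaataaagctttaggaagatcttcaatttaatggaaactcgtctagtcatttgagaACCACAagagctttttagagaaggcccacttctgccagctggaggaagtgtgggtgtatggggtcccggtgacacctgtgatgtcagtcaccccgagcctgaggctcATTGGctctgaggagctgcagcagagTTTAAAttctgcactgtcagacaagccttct
Mepe, chr5:104325079-104325328: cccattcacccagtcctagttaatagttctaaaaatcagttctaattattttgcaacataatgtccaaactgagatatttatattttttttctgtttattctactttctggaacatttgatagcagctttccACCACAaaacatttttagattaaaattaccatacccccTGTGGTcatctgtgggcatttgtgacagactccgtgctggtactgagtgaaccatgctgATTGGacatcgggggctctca

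All 4 SIBLING start regions held the reverse form of CCAAT, starting 46 bases before the start site in Spp1, 54 in Ibsp, 57 in Dmp1 and 21 in Mepe. CCAAT in either orientation was present in 33.9% of 32841 mouse promoter windows of the same length. The Runx core was present in Spp1, Dmp1 and Mepe (2 matches in Mepe), and in 14% of all windows. TTTAAA was present 20 bases before the start in Spp1 and 31 bases before it in Dmp1, and in 12.1% of all windows. The windows of Spp1 and Dmp1 held all 3 motifs, as did 0.612% of all windows. Because the motifs were looked for with these sequences in view, the shares are a description and no test. The RefSeq start of Ibsp lies 116 bases downstream of the GENCODE start, and that of Fam20c 567 bases downstream, so both windows depend on the annotation. The Phex window held TTTAAA and neither other motif. The Fam20c window held CCAAT alone and was rich in G and C, at 81.2%, against 38% to 45.6% in the 4 SIBLING genes and a median of 52.4% over all windows. A match of letters is not evidence of binding.

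All 6 genes had a higher CPM (counts relative to library size, scaled between libraries by TMM) in both HC libraries than in both PC libraries, as had 27.7% of all genes tested. Phex rose, which makes 1 of 6 genes past the threshold against a background of 2.75% of all genes, and the other 5 did not pass. The median log2 fold change of the 6 genes was 5.04, against -0.04 over all genes tested. These comparisons with all genes are a description, because the 6 were chosen with earlier results of these data known. Of all genes tested, 4.13% had a log2 fold change of at least 3 in HC, as did all 6 of these. That cutoff lies just under the lowest of the 6, Fam20c at 3.03, which was 1.87 without HC replicate 4. The share is thus a description and no test. The bulk libraries cannot tell fewer cells of a type from less RNA per cell.

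Spp1 encodes osteopontin, which binds integrins and CD44 and inhibits mineral growth (ENSMUSG00000029304, chromosome 5, 104435118 to 104441050, plus strand). It had 19.3 and 280 CPM in PC replicates 1 and 2, and 3331 and 6293 CPM in HC replicates 3 and 4. The groups did not overlap, but the 2 PC libraries stood 14.53-fold apart, while the lower HC library was 11.9-fold above the higher PC library. HC exceeded PC by 5.01 ± 1.29 on the log2 scale (SE, n = 2 per group), which did not pass (edgeR adjusted p = 0.0822). Without PC replicate 1 it was 4.07, without PC replicate 2 it was 7.93, and it passed with any single library left out. In such a fit 1 group keeps 1 library, which is assumed to vary like the pair of the other group, so the fits without a PC library no longer hold the PC gap (SE 0.77 and 0.96 against 1.29) and their calls are no sign of stability.

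Ibsp encodes bone sialoprotein, which can start the formation of mineral (ENSMUSG00000029306, chromosome 5, 104299171 to 104311469, plus strand). It had 15 and 210 CPM in PC replicates 1 and 2 and 5657 and 2988 CPM in HC replicates 3 and 4. Both HC libraries were high, PC replicate 2 was intermediate and PC replicate 1 low. The log2 fold change of 5.26 ± 1.30 (SE, n = 2 per group) did not pass (edgeR adjusted p = 0.0762). Here HC replicate 3 was the higher of the HC libraries, the reverse of Spp1, with a ratio of HC replicate 4 to HC replicate 3 of 0.528 for Ibsp and 1.89 for Spp1. Without PC replicates 1 and 2 in turn the change was 4.33 and 8.14.

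Dmp1 encodes dentin matrix protein 1, which is typical of osteocytes and odontoblasts (ENSMUSG00000029307, chromosome 5, 104202613 to 104214102, plus strand). It had 1.02 and 11.5 CPM in PC replicates 1 and 2 and 301 and 124 CPM in HC replicates 3 and 4. Its order of libraries was that of Ibsp, at a much lower level. The log2 fold change of 5.08 ± 1.19 (SE, n = 2 per group) did not pass (edgeR adjusted p = 0.0698), and was 4.17 once PC replicate 1 was left out, 7.67 once PC replicate 2 was, and 4.27 once HC replicate 3 was.

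Mepe encodes matrix extracellular phosphoglycoprotein, the source of an acidic peptide that blocks mineral growth (ENSMUSG00000053863, chromosome 5, 104325329 to 104338611, plus strand). It had 0 and 13 estimated counts in PC replicates 1 and 2 and 139 and 281 in HC replicates 3 and 4. The count of 0 allows up to 0.0872 CPM in PC replicate 1, against 0.338 CPM in PC replicate 2 and 11.3 and 12.65 CPM in HC replicates 3 and 4 (limit of 3 counts, counting error only). The HC libraries were close to one another, and both were far above PC. The log2 fold change of 6.08 ± 1.34 (SE, n = 2 per group) rests on few PC counts and did not pass (edgeR adjusted p = 0.0611). It was 5.09 without PC replicate 1 and 11.1 without PC replicate 2, where no PC count was left and the value depends on the prior count of the fit.

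Phex, the peptidase (ENSMUSG00000057457, chromosome X, 157162075 to 157415312, minus strand), had 3.52 and 12.4 CPM in PC replicates 1 and 2 and 159 and 242 CPM in HC replicates 3 and 4. The PC libraries were closer than for Spp1, Ibsp and Dmp1, with PC replicate 2 at 3.54 times PC replicate 1, and HC replicate 4 stood at 1.52 times HC replicate 3. Phex rose by a log2 fold change of 4.65 ± 0.70 (SE, n = 2 per group, edgeR adjusted p = 0.037), higher in 2 of 2 HC libraries. Leaving out PC replicates 1 and 2 in turn gave 3.97 and 5.80, leaving out HC replicates 3 and 4 in turn gave 4.89 and 4.27, and each passed with the spread taken from the remaining pair. Scaled to library size alone (adjusted p = 0.0515) or tested on log2(TPM + 1) with limma (adjusted p = 0.0512), it did not pass.

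Fam20c, the kinase (ENSMUSG00000025854, chromosome 5, 138754514 to 138810077, plus strand), lies far from the SIBLING cluster on the same chromosome. It had 10.8 and 12.8 CPM in PC replicates 1 and 2 and 44.6 and 148 CPM in HC replicates 3 and 4. The PC libraries were nearly level, and the wider gap was within HC, where replicate 4 stood at 3.32 times replicate 3. The log2 fold change of 3.03 ± 0.61 (SE, n = 2 per group) did not pass (edgeR adjusted p = 0.0529), and was 3.62 without HC replicate 3 and 1.87 without HC replicate 4. Both of these fits take the spread from the nearly level PC pair alone (SE 0.33 in each), and both passed.

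**Figure D1:**
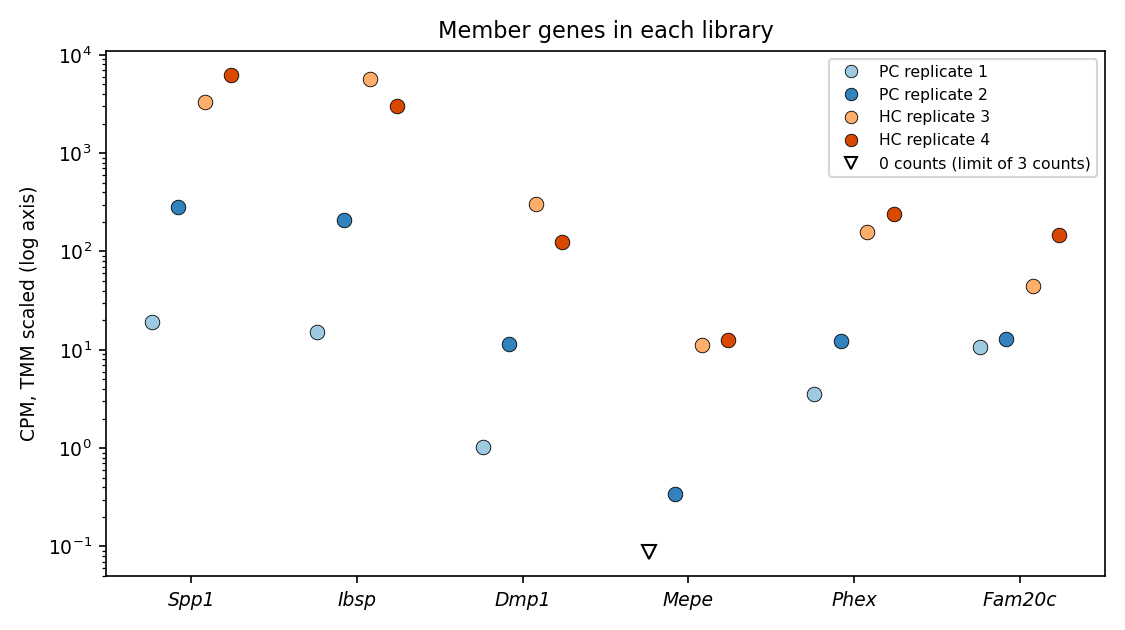
Level of each of the 6 genes in CPM on a log axis, 1 point per library, with a triangle at the limit of 3 counts where no count was found. Both HC points lie above both PC points for each gene, and PC replicate 2 lies well above PC replicate 1 for Spp1, Ibsp and Dmp1 but not for Fam20c.

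With 1 library left out in turn, all 6 genes passed each time, in fits whose spread comes from the remaining pair of 1 group alone. The share of all genes tested that was higher in HC was then 2.08% and 3.28% with PC replicates 1 and 2 left out in turn, and 13.1% and 18.3% with HC replicates 3 and 4 left out in turn. Counts of other genes in such fits, given further on, stand against the same shares. With DESeq2 all 6 genes were higher in HC, as were 9.63% of all genes, and with edgeR and no filter on low counts all 6 were higher, as were 3.99%. With scaling to library size alone 0 of 6 and 0% of all genes passed with edgeR, where 4394 genes had an unadjusted p under 0.05. RLE scaling and a length offset each left Phex as the 1 of 6 that passed, against 2.78% and 1.62% of all genes, and limma-trend on log2(TPM + 1) left Mepe, against 0.445%.

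**Figure D2:**
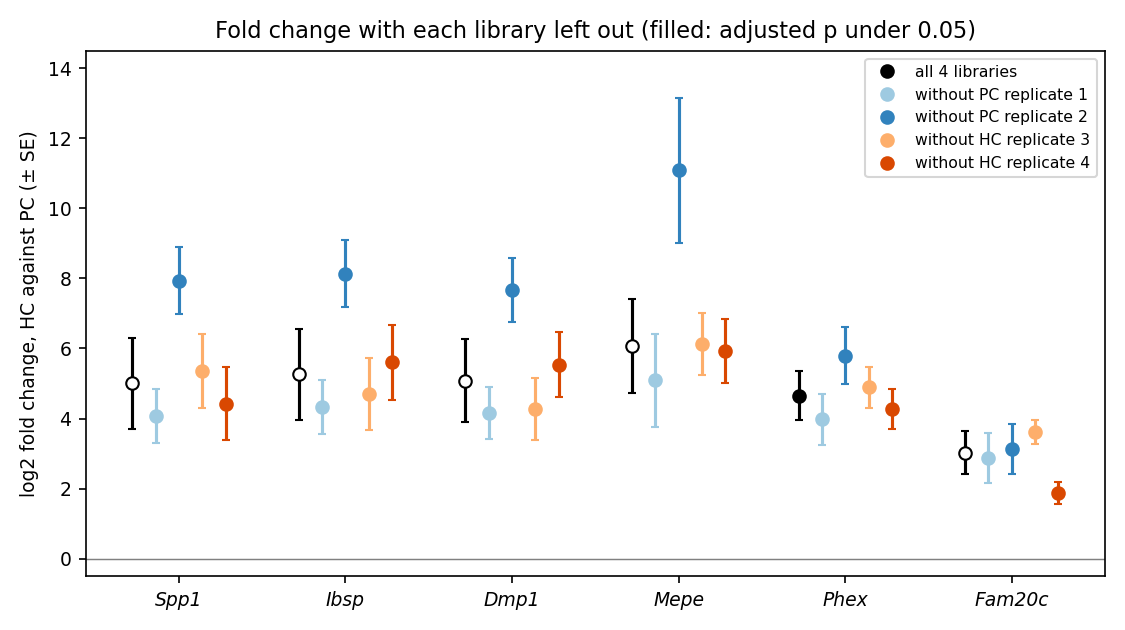
Log2 fold change of HC against PC for each gene with its SE, over all 4 libraries and with each library left out (filled points have an edgeR adjusted p under 0.05). The values without PC replicate 2 are the highest for Spp1, Ibsp, Dmp1, Mepe and Phex, and the lowest value for Fam20c, 1.87, is without HC replicate 4.

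Few genes were higher in PC replicate 2 by as much as Spp1, Ibsp and Dmp1, and genes lower there were not counted. Among 15718 genes tested with at least 10 counts in both PC libraries, 14 (0.0891%) were at least 10-fold higher in PC replicate 2, and the median log2 ratio was -0.01. Spp1, Ibsp and Dmp1 were 3 of those 14, at 14.53-fold, 14-fold and 11.3-fold. Others of the 14, named after their values were seen, included the matrix proteases Mmp13 (13.8-fold) and Mmp9 (12.9-fold), the transporter Slco2b1 (10.7-fold), the cytokine Csf3 (26.4-fold) and 6 pseudogenes. Phex, at 3.54-fold, was among the 0.891% of genes at least 3-fold higher in PC replicate 2. Fam20c had a ratio of 1.19. The hypertrophic collagen Col10a1 had 109 and 876 CPM (PC), then 17803 and 26922 CPM (HC), and so was also higher in PC replicate 2. Of 8 hypertrophic markers, 5 were higher in PC replicate 2 and 3 were lower there (Panx3, Vegfa and Pth1r). The part of hypertrophic cells in that library was not tested.

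The members were also set against Col10a1 within each library. Per 100 TPM (transcript abundance within a library, corrected for length) of Col10a1, Spp1 had 42.2 and 75.7 TPM in PC replicates 1 and 2 and 43.7 and 55.1 TPM in HC replicates 3 and 4, so the groups overlapped. Ibsp had 21.5, 37.3, 49.1 and 17.2 TPM per 100 of Col10a1 in the same order, which overlapped too. Dmp1 had 1.08, 1.497, 1.92 and 0.524 TPM per 100 of Col10a1, and its groups overlapped as well. Mepe had 0 and 0.075 TPM per 100 of Col10a1 in PC, from 0 and 13 counts, and 0.122 and 0.0913 in HC, which did not overlap. As gene sums, Phex and Fam20c went the other way, with the highest value in PC replicate 1. Phex had 2.28 and 0.915 TPM per 100 of Col10a1 in PC and 0.503 and 0.470 in HC, and Fam20c had 16.4 and 3.64 in PC and 0.704 and 1.32 in HC. In PC, 71.7% and 51.5% of the Phex sum came from the single-exon transcript Phex-202, which was listed at 0 in both HC libraries. The order of the groups for Phex thus rests on that transcript.

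In TPM, Spp1 and Ibsp were the most abundant of the 6 in every library. Among protein-coding genes, Spp1 ranked 4530th and 321st in PC replicates 1 and 2 and 40th and 17th in HC replicates 3 and 4, and Ibsp 6917th, 705th, 32nd and 47th. Spp1 had 23.2 and 292 TPM in PC and 2062 and 6137 TPM in HC, and Ibsp had 11.8 and 144 TPM in PC and 2316 and 1920 TPM in HC, so the levels of this pair overlapped within each group. In HC, Dmp1 (90.7 and 58.3 TPM) overlapped with Fam20c (33.2 and 147 TPM), Fam20c overlapped with Phex (23.7 and 52.4 TPM), and Mepe was lowest (5.77 and 10.2 TPM). In PC, Fam20c (9.06 and 14 TPM) overlapped with Ibsp and was above Phex (1.26 and 3.53 TPM), Phex overlapped with Dmp1 (0.593 and 5.77 TPM), and Mepe (0 and 0.289 TPM) was below all of these.

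The summed level of the 4 SIBLING genes was 35.7 and 441 TPM in PC and 4474 and 8126 TPM in HC. Spp1 made up 65.1% and 66.1% of this sum in PC, 46.1% in HC replicate 3 and 75.5% in HC replicate 4, so the PC libraries were alike in make-up in spite of the gap in level. Dmp1 stood at 5.01, 4.01, 3.91 and 3.04 TPM per 100 TPM of Ibsp in PC replicates 1 and 2 and HC replicates 3 and 4. The ratio of this pair moved by less than 2-fold over the libraries.

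Transcripts were summed for each gene, and for Phex and Fam20c the make-up of the sum varied between libraries. Ibsp, Dmp1 and Mepe have 1 transcript each in the tables, and Spp1 has 7, of which Spp1-201 held 95% to 96.7% of the gene's TPM in each library. Phex has 3. Phex-202, a single exon of 3588 bases at the downstream end of the gene with 100 coding bases, held 71.7% and 51.5% of the Phex TPM in PC and was listed at 0 in both HC libraries. Phex-201, of 22 exons, had 0.357 and 1.61 TPM in PC and 19 and 47 TPM in HC. With Phex-202 left out, an alternative chosen after seeing these values, Phex rose by 5.45 ± 0.87 (edgeR adjusted p = 0.0384). Kallisto divides reads among such overlapping transcripts by likelihood, and an error for a single transcript was not analysed here.

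Most of the Fam20c TPM came from Fam20c-202, a non-coding transcript of 795 bases, with 50.4% and 70.4% of the sum in PC and 72.7% and 77% in HC. In estimated counts, which do not correct for its short length, it held 17.7% and 37.7% in PC and 45.6% and 40.2% in HC, against 66.7%, 54.9%, 44.5% and 53.8% for the coding Fam20c-201. The 1 coding transcript, Fam20c-201, had 3.14 and 2.69 TPM in PC and 4.56 and 28.6 TPM in HC, and 7.17 and 7.04 CPM in PC against 19.8 and 79.5 CPM in HC. HC replicate 3 was thus nearer to PC in TPM than in CPM, the scale of the test. From this transcript alone the log2 fold change was 2.81 ± 0.68 and did not pass (edgeR adjusted p = 0.0749, chosen after seeing the data). Of genes that overlap the 6 on either strand, the pseudogene Gm15172 within Phex was in the tables, with 4 and 0 counts in PC and 14 and 35 in HC.

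**Figure D3:**
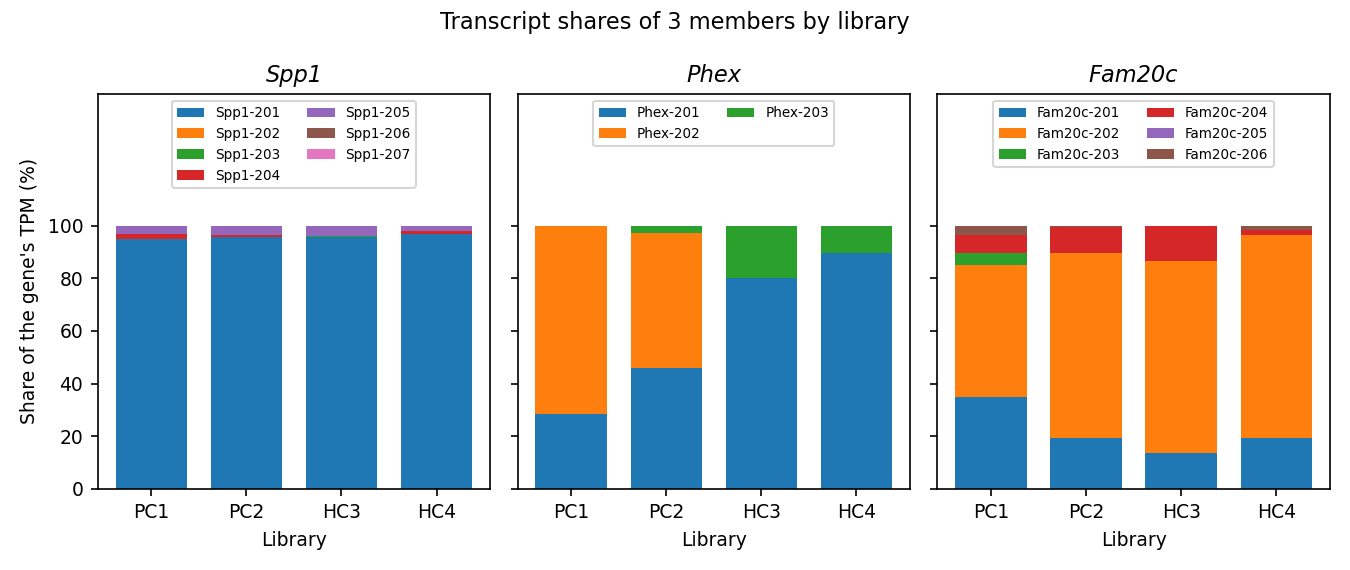
Share of the summed TPM held by each annotated transcript of Spp1, Phex and Fam20c in the 4 libraries, as stacked bars that add to 100%. Spp1-201 dominates in every library, Phex-202 is present in both PC libraries and absent from both HC bars, and Fam20c-202 holds the largest share of Fam20c in each library.

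Genes next to the SIBLING cluster were examined in the same way. Dspp, which encodes dentin sialophosphoprotein and lies beside Dmp1, had 4 and 15 counts in PC and 0 in both HC libraries, too low to be tested. With each group pooled it was at least 3.0-fold lower in HC (against 3 counts over the HC group, counting error of HC only). This bound does not hold library by library. PC replicate 1, at 0.116 CPM, lay below the limits of 0.2435 and 0.135 CPM in HC replicates 3 and 4. Of 11 other protein-coding genes within 500 kb of the cluster, 10 were tested, 1 rose and 0 fell, with a median log2 fold change of 0.53. Over all genes tested, 2.75% rose and 1.96% fell. Of the 10, 5 were higher in both HC libraries, as were 27.7% of all genes tested, and 0 were lower in both. The gene that rose was Hsd17b11, a steroid and lipid droplet enzyme, at 10.2 and 11.4 CPM (PC) against 38.5 and 37.3 CPM (HC) (1.81 ± 0.32, edgeR adjusted p = 0.0425). The nearest genes on either side, the matrix protein Sparcl1 and the ion channel Pkd2, differed by -0.01 ± 0.60 and 0.49 ± 0.39 on the log2 scale and did not pass (edgeR, adjusted p of 0.992 and 0.478). Abcg3, at the far edge, had 2 and 5 counts (PC) against 51 and 19 (HC), and its difference of 4.65 ± 1.38 missed the threshold (edgeR adjusted p = 0.103).

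**Figure D4:**
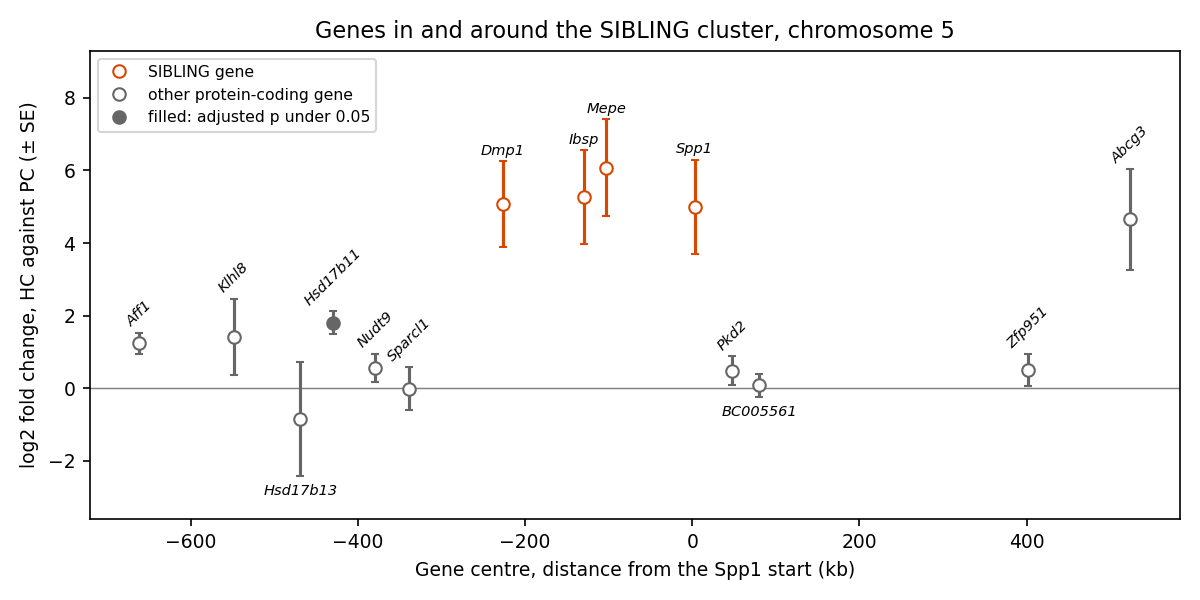
Log2 fold change of HC against PC with its SE for each tested protein-coding gene in and around the cluster, by distance of the gene centre from the Spp1 start in kb. The 4 SIBLING genes lie between 5.01 and 6.08, and the other genes between -0.85 and 4.65, with Abcg3 as the highest.

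Genes with the most similar pattern were sought among 7623 protein-coding genes by the root mean square difference of centred log2 CPM over the 4 libraries. For Spp1 they were Mmp13, a collagenase (0.294), Col10a1 (0.335) and Tnfsf11, the osteoclast factor RANKL (0.347). For Ibsp they were Dmp1 (0.285), Mmp9 (0.339) and Mmp13 (0.38), and those for Dmp1 included Mmp9 (0.282) and Ibsp (0.285). For Mepe they were Ddit4l, an inhibitor of growth signalling (0.217), the prostaglandin-degrading Hpgd (0.242) and Col10a1 (0.245). Phex was closest to the citrate transporter Slc13a5 (0.058), the annexin Anxa3 (0.099) and the phosphatase Alpl (0.122), and Fam20c to the integrin Itga7 (0.058), the glycosyltransferase B3gnt5 (0.06) and the GTPase Gimap6 (0.06). Over the same measure Spp1 and Ibsp were 0.661 apart, and Fam20c was at least 1.244 from each of the other 5 genes.

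Among genes that act with the SIBLING proteins, receptors moved in both directions. Of 11 RGD-binding integrins and CD44, 2 rose and 1 fell (median log2 fold change 0.84). Over all genes tested 2.75% rose and 1.96% fell, and this and the later list counts stand against those shares. The receptor Cd44 went from 7.44 and 12.6 CPM (PC) to 77.6 and 84 CPM (HC), a rise of 3.01 ± 0.38 (edgeR adjusted p = 0.0359). Itgb3, a subunit of the osteopontin receptor of osteoclasts, rose by 4.37 ± 0.66, with 3.77 without PC replicate 1 and 5.29 without PC replicate 2. Itga9, which binds a cut form of osteopontin, fell by 1.83 on the log2 scale, but not past the threshold once PC replicate 1 or 2 was left out (edgeR adjusted p = 0.16 and 0.063). The median of the 11 was 0.68, 0.95, 0.65 and 0.89 with PC replicates 1 and 2 and HC replicates 3 and 4 left out in turn.

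Enzymes that cut or cross-link SIBLING proteins had 2 of 9 higher and 0 lower (median 0.76). They were the collagen-degrading Ctsk (4.11 ± 0.56) and the transglutaminase F13a1, at 11.3 and 20.7 CPM (PC) against 292 and 390 CPM (HC) (4.41 ± 0.45, edgeR adjusted p = 0.0359). With PC replicates 1 and 2 and HC replicates 3 and 4 left out in turn, the median of these enzymes was 0.93, 0.88, 1.07 and 0.84. Kinases of the secretory pathway related to Fam20c had a median of -1.15, with 0 higher and 1 lower of 9. Fam198a, a Golgi kinase relative, fell from 26.9 and 20.8 CPM to 0.325 and 1.71 CPM (-4.47 ± 0.78, edgeR adjusted p = 0.0422), and leaving out HC replicates 3 and 4 in turn gave -3.83 and -6.23. Without HC replicates 3 and 4 in turn, 4 and 4 of the 9 kinases were lower and 1 and 0 higher, in fits where 2774 and 3775 of all genes tested were lower. Peptidases of the family of Phex had 0 of 4 past the threshold (edgeR). Mme and Ece1, the most abundant of them, differed by 0.24 ± 0.36 and 1.46 ± 0.36 (edgeR adjusted p = 0.714 and 0.0754).

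In the phosphate and Fgf23 axis, in which Phex, Dmp1 and Fam20c act, 3 of 8 genes rose and 0 fell (median -0.01). The receptor Fgfr1 rose by 2.79 ± 0.38, the Fgf23-glycosylating Galnt3 by 3.53 ± 0.45 and the vitamin D receptor Vdr by 1.63 ± 0.29, the last of which did not pass without PC replicate 1 or 2 (edgeR adjusted p = 0.201 and 0.18). Fgf23 itself had 21, 18, 3 and 7 counts, or 0.61 and 0.467 CPM (PC) against 0.244 and 0.315 CPM (HC), and did not pass (-0.93 ± 1.08, edgeR adjusted p = 0.635). Of 10 mineralisation genes 3 rose and 0 fell (median 1.17). These were the phosphatase Alpl (4.56 ± 0.69), the pyrophosphate exporter Ank (2.99 ± 0.37) and the phosphatase Phospho1 (1.97 ± 0.37), which missed the threshold with PC replicate 1 left out (edgeR adjusted p = 0.16). The mineralisation median was 1.09, 1.31, 1.21 and 1.41 with PC replicates 1 and 2 and HC replicates 3 and 4 left out in turn. Alpl was at 3.87 without PC replicate 1 and 5.77 without PC replicate 2.

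Of 12 transcription factors tied to SIBLING genes in bone, 4 rose and 1 fell (median 1.36). Among them Mef2c rose by 3.11 ± 0.41, Ets1 by 2.72 ± 0.36 and Dlx3 by 2.31 ± 0.41, and Runx3 fell by 2.01 on the log2 scale. The list median was 1.29, 1.36, 1.17 and 1.16 with PC replicates 1 and 2 and HC replicates 3 and 4 left out in turn.

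**Figure D5:**
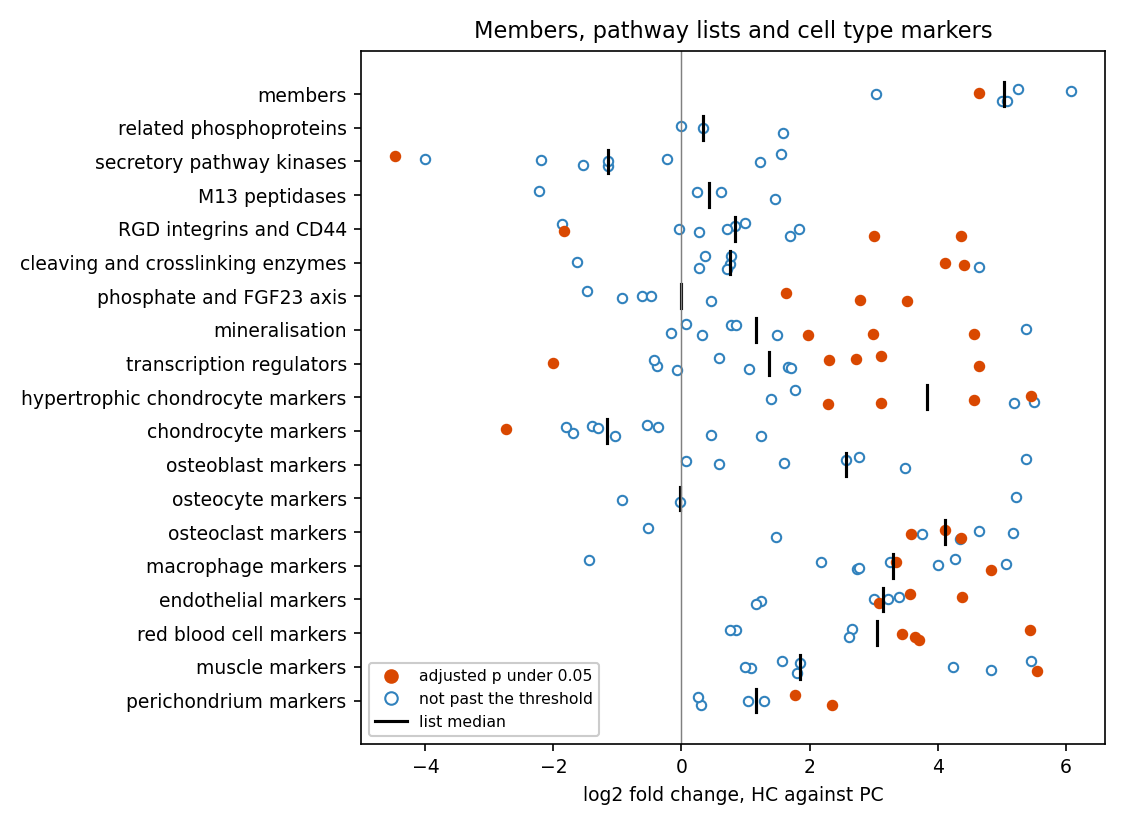
Log2 fold change of HC against PC for every tested gene of each list, 1 point per gene, with the list median as a bar and genes past the threshold in orange. The median of the 6 genes, 5.04, is the highest of the lists, and hypertrophic chondrocyte, osteoclast, macrophage, endothelial and red blood cell markers also have medians above 3.

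Markers of most other cell types had a positive list median of HC against PC. The 3 osteocyte markers tested had a median log2 fold change of -0.03. Spp1 is also made by osteoclasts, macrophages and osteoblasts. Of 9 osteoclast markers tested 3 rose (Acp5, Itgb3 and Ctsk) and 8 were higher in both HC libraries, while Nfatc1 was lower in both. Over all genes tested 2.75% rose and 27.7% were higher in both HC libraries. The summed level of the osteoclast list was 42.6 and 63.8 TPM in PC and 402 and 419 TPM in HC. The defining marker Dcstamp had 5 and 4 counts in PC and 20 and 0 in HC. Calcr had 3 and 7 counts in PC and 39 and 14 in HC. Macrophage markers summed to 12.3 and 18.8 TPM in PC and 121 and 75.9 TPM in HC. Of 10 tested, 2 rose (Cd68 and Mrc1) and 9 were higher in both HC libraries. C1qa had 2 and 11 counts in PC and 0 in both HC libraries. C1qc was lower in both HC libraries, at 2.24 and 1.09 CPM (PC) against 0.731 and 0.495 CPM (HC). Osteoblast markers had 0 of 7 past the threshold (edgeR) and 5 higher in both HC libraries, with sums of 322 and 368 TPM in PC and 1962 and 1126 TPM in HC. Col1a1 and Col1a2, which encode the chains of bone collagen, differed by 3.48 ± 0.70 and 2.78 ± 0.62 on the log2 scale and did not pass (edgeR, adjusted p of 0.0529 and 0.0632). Bglap had 0 and 8 counts in PC and 76 and 67 in HC, and did not pass (5.38 ± 1.59, edgeR adjusted p = 0.102). Bglap2 had 5 and 0 counts in PC and 0 in both HC libraries.

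Endothelial markers summed to 25.8 and 19.5 TPM in PC and 100.1 and 77.3 TPM in HC, with 3 of 8 higher (Flt1, Cdh5 and Kdr). Of 8 red blood cell markers 4 rose (among them Hbb-bs, Hba-a2 and Hbb-bt), with sums of 68.8 and 101 TPM in PC and 459 and 701 TPM in HC. Of 9 muscle markers Myh3 rose, and the list summed to 45.1 and 70.9 TPM in PC and 201 and 85.6 TPM in HC. Of 6 perichondrium markers Postn and Twist1 rose. With PC replicate 1 left out, Flt1, Hbb-bs, Postn, Mrc1 and Twist1 missed the threshold (edgeR, adjusted p of 0.078, 0.0612, 0.0795, 0.421 and 0.314). With PC replicate 2 left out, Mrc1 and Twist1 missed it (edgeR, adjusted p of 0.312 and 0.173). Over the 4 left-out libraries, the number of markers higher in HC ran from 5 to 9 for osteoclasts, 2 to 8 for macrophages, 2 to 5 for osteoblasts, 2 to 8 for endothelium, 3 to 6 for red blood cells, 4 to 8 for muscle and 0 to 4 for perichondrium, while the share of all genes ran from 2.08% to 18.3%. The part of these cell types in the levels of the 6 genes was not tested.

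The labelled state of the cells was checked on its own markers. Of 8 hypertrophic markers 4 rose (Mef2c, Ihh, Alpl and Pth1r) and 8 were higher in both HC libraries, against 2.75% and 27.7% of all genes tested. The list summed to 474 and 932 TPM in PC and 9805 and 16248 TPM in HC. Col10a1 and Mmp13 differed by 5.504 ± 1.125 and 5.197 ± 1.236 on the log2 scale and did not pass (edgeR, adjusted p of 0.0538 and 0.0716). Panx3 and Vegfa did not pass either. The signal Ihh went from 36.3 and 56.6 CPM (PC) to 3501 and 583 CPM (HC), a rise of 5.46 ± 0.97 that was 3.62 once HC replicate 3 was left out. With single libraries left out, 6 to 8 of the 8 were higher. General chondrocyte markers stayed abundant, at 17571 and 12027 TPM in PC and 5713 and 10491 TPM in HC, and 1 of 10, Sox5, fell (up to 5 of 10 with a library left out).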

How the data were processed

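RNA of 4 libraries (2 PC, 2 HC) was used. The submitters' processing notes name Trimmomatic 0.36, kallisto 0.43.1 and build mm10. The deposited tables give, per the file headers, an estimated count and a TPM value per transcript, and also the annotated and effective length, which are other values, in bases. No source used here gives the strand setting or index.

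Of 109282 transcripts, 107987 matched GENCODE M21 (GRCm38) by identifier. Unmatched ones held 0.36% to 0.53% of counts and were left out. Estimated counts were summed per gene, rounded, filtered with filterByExpr, scaled by TMM and tested in edgeR 4.0.16 (quasi-likelihood F-test, Benjamini-Hochberg over 16607 genes, threshold 0.05). The SE is the coefficient over the root of F. Other tools were R 4.3.3, limma 3.58.1 (log2(TPM + 1), TPM of at least 1 in 2 libraries), DESeq2 1.42.0, Python 3.11.15 and matplotlib 3.10.9. Promoters are from RefSeq.

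The 6 genes and the gene lists were chosen with earlier results of these data known. Named from each list are all genes that passed, else the 2 with the highest TPM, and for each of the 6 genes the 3 of most similar pattern (10 TPM or more on average in the group where it is higher, prior count 2). Of the osteocyte list, Fam46a matched no gene. Some genes that this rule names are not reported here. Alternatives were other scalings, filters, tests and left-out libraries.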

Additional observations from a re-analysis of the deposited data

How the results depend on the processing

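All 6 genes kept a higher level in HC under the 11 alternatives. Phex stayed past the threshold except with scaling to library size alone (4.45) and with limma-trend on log2(TPM + 1) (3.51). The other 5 (Spp1, Ibsp, Dmp1, Mepe and Fam20c, in this order) passed with DESeq2, at 5.03, 5.28, 5.10, 6.15, 3.05, and with edgeR without a low-count filter, at 4.97, 5.23, 5.05, 6.05, 3.0. Mepe also passed with limma-trend (2.94). Single libraries left out gave 4.07 to 7.93 for Spp1, 4.33 to 8.14 for Ibsp, 4.17 to 7.67 for Dmp1, 5.09 to 11.09 for Mepe, 3.97 to 5.80 for Phex and 1.87 to 3.62 for Fam20c. All passed, in fits that leave 1 group with 1 library and take the spread from the other pair, so these calls are no sign of stability. The number of the 6 that passed, 1 over all libraries, was 0 with library size scaling (edgeR, 4394 genes at an unadjusted p under 0.05), 6 with DESeq2, 6 without a low-count filter and 6 to 6 with single libraries left out. Over all genes, 457 were higher and 325 lower in HC. These became 0 and 0 with library size scaling, 1651 and 1446 with DESeq2, 963 and 965 without a filter, 64 and 208 with limma-trend, and 269 and 167 with a length offset. With single libraries left out, 379 to 3331 were higher and 257 to 3775 lower, both at their highest with HC replicate 4 left out. The cause of these shifts was not tested. The median log2 fold change of all genes moved from -0.04 to -0.29 with library size scaling, -0.20 with DESeq2, -0.25 without a filter and -0.51 with limma-trend. No paired analysis was possible because the groups share no replicate numbers. With 2 libraries a group, depth limits Mepe most, which had 0 and 13 counts in PC.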

Other observations

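Enamel and dentin genes related to the SIBLING family were near the limit of detection. These genes, named for their relation and not by how they moved, were read as counts. Ambn, an enamel matrix gene, had 3 and 2 counts in PC and 47 and 8 in HC, and Amelx, which encodes amelogenin, had 4 and 29 counts in PC and 14 and 0 in HC. Enam had 0 and 7 counts in PC and 0 in both HC libraries. Sparc, the collagen-binding osteonectin from which the family is thought to derive, stood at 820 and 848 CPM (PC) against 3000 and 1994 CPM (HC), a difference of 1.58 ± 0.38 on the log2 scale that missed the threshold (edgeR adjusted p = 0.0745). Sost, an osteocyte gene, had 0 and 5 counts (PC) against 23 and 76 (HC) and missed the threshold (5.23 ± 1.64 on the log2 scale, edgeR adjusted p = 0.113), as did Pdpn (-0.03 ± 0.52, edgeR adjusted p = 0.981).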
